A study of Mus musculus with 4 samples.

Results

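Replication-dependent histone genes were taken as every feature whose symbol begins with Hist1h, Hist2h, Hist3h or Hist4h, which gave 67 of the 32285 genes in the deposited matrices. By the letters of the symbol, 6 encode the linker histone H1, 18 encode H2A, 18 encode H2B, 12 encode H3 and 13 encode H4. In the kept cells 65 of the 67 had at least 1 UMI (unique molecular identifier, which marks 1 captured RNA molecule), and 63 had at least 10. The 2 genes at 0 were Hist1h2ba and Hist1h2bq. The 67 genes held 360788 UMIs, of which Hist1h2ap, an H2A gene, held 38.9%, and the 10 highest genes held 77.9%.

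Single-cell RNA-seq in droplets, with a kit that captures poly(A) tails and reads the 3′ ends of RNAs, was run on thymocytes of 2 control and 2 conditional knockout (cKO) mice. Control mice were Tox4;F/F, with both Tox4 alleles floxed and no Cre, and cKO mice were Tox4;F/F;Lck+, with Cre driven by the proximal promoter of Lck, a kinase gene of the T lineage. Mice were gender-matched littermates of 6 to 8 weeks on a C57BL/6 background, with exons 4 to 6 of Tox4 floxed. The comparison asks what loss of Tox4, which encodes an HMG-box protein that regulates PP1 phosphatases, changes in developing T cells.

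Histone genes of this kind are transcribed mainly while DNA is copied, so that new chromatin can be packed. Their mRNAs are known for ending in a conserved stem-loop in place of a poly(A) tail. The loop is bound by SLBP, and the mRNAs are degraded when S phase ends. Some of these genes can also give longer, polyadenylated transcripts. Counts from poly(A) capture therefore show only those histone RNAs that were primed, and not the whole pool.

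The annotated 3′ end of each gene was searched, because the stem-loop is the feature that sets these mRNAs apart from others. In the GENCODE M21 annotation of GRCm38, 40 of the 67 genes carried a 16-base stem-loop in 1 of 7 spellings after the stop codon. Other coding genes were searched over the whole transcript, and 12 of 21834 (0.05496%) held such a loop. In 15 of the 67 models at most 2 bases follow the stop codon, so no loop could be found there, and 40 of the other 52 carried it. The most frequent spelling was found in 26 genes and the second in 7. The windows below belong to genes on which the results turn. They read 5′ to 3′ along the transcript, with the stem-loop in capitals.
Hist1h2ap: aaaaaaaaaGGCTCTTTTCAGAGCCatc
Hist1h2ae: aaaaacaaaGGCTCTTTTCAGAGCCattca
Hist3h2ba: caacccaaaGGCTCTTTTCAGAGCCacctt
Hist3h2a: gacaccaaaGGCTCTTTTCAGAGCCaccca
Hist1h1c: aatccaaaaGGCTCTTTTCAGAGCCaccac
Hist1h3d: gaccccaaaGGCTCTTTTCAGAGCCacccc
Hist1h4d: aaaaccaaaGGCCCTTTTCAGGGCCactac
Hist1h4h: aaaaccaaaGGCCCTTTTCAGGGCCgccca
Hist1h4i: ctacttaaaGGCCCTTTTTAGGGCCaccac

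Genes with the same loop differed in how far the annotated transcript runs past it. The Hist1h2ap model (chr13:21833026-21833507, minus strand, a single exon) ended 3 bases after the loop, with a run of 12 A directly before it. The Hist3h2ba model (chr11:58948920-58949533, plus strand, a single exon) ran on for 169 bases and the Hist3h2a model (chr11:58954685-58956830, plus strand, a single exon) for 1643 bases, both with the poly(A) signal AATAAA in their last 50 bases. The Hist1h4i model (chr13:22040636-22041362, minus strand) ran on for 330 bases without that signal. The Hist1h1b model stops at the stop codon and could not show a loop. None was found in the long model of Hist2h2be, nor in that of Hist1h2bc (chr13:23684199-23692908, plus strand), which has 2 exons. In all, 20 genes ended within 100 bases after the loop, 20 ran further past it and 27 had no loop in the model, 15 of them the models that stop at or within 2 bases of the stop codon. AATAAA was sought in the last 50 bases of the longest coding model of each gene. It stood in 9 of the 20 that ran further past the loop and in 4 of the 27 without it. Of the 20 that ended near the loop, 1 held AATAAA, Hist1h2bp, whose longest model holds no loop. For other coding genes any coding model counted, a wider measure, and 65.85% held it.

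Promoters were searched for 3 motifs because most of the genes moved together in the cycling cells described below. RefSeq promoters (GRCm38.p6, from 250 bases before to 50 after the start) were matched for 61 genes. TATAAA, on the strand of the gene, was held by 47.5% of them and by 9.69% of 26964 other promoters. CCAAT, on either strand, was held by 85.2% against 41.0%, in every matched H1, H2A, H2B and H3 promoter but in 25% of the 12 H4 promoters. The octamer ATTTGCAT, on either strand, was held by 38.9% of H2A and 43.8% of H2B promoters, by none of the matched H1, H3 and H4 promoters, and by 1.92% of others. Matches of 1 motif may overlap those of another, and a match describes letters only. The 150 bases before the start of a gene of each of 3 classes are given 5′ to 3′ on the strand of the gene, with TATAAA and CCAAT (or its reverse complement ATTGG) in capitals.
Hist1h1b, chr13:21780626-21780775, minus strand: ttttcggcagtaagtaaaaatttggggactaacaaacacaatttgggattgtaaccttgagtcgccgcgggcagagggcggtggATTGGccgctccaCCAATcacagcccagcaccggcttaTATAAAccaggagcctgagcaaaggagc
Hist1h4d, chr13:23581418-23581567, plus strand: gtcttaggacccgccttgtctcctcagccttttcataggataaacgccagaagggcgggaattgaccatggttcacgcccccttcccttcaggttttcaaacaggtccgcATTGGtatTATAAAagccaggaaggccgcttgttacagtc
Hist3h2ba, chr11:58948761-58948910, plus strand: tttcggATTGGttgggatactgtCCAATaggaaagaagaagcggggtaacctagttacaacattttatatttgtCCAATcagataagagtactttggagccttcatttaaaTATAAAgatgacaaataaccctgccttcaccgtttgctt

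The files held 11790 to 17347 cells and 42716798 to 62007453 UMIs per library, and 33414 of 57354 cells were kept. Cells with over 10% mitochondrial UMIs made up 48.3% and 46.1% of the replicate 1 libraries of control and cKO, and 20.6% and 23.1% of the replicate 2 libraries. A total of 348 cell barcodes occurred in more than 1 library. Cells were clustered without the 67 genes, so that histone levels did not place a cell in its group, and clusters were named only from marker genes. Names such as DPbla (double-positive blasts, the dividing CD4+ CD8+ cells) are therefore rebuilt here and mean DPbla-like. Mki67, a proliferation marker, stood at 979 to 1149 CPM (the UMI count of a gene scaled to a common total per group) in DPbla cells and at 13.5 to 26.0 CPM in resting DP cells, which are DPre and DPsel cells (DP cells after the blast stage and DP cells under selection) in G1 by score. Mki67 is 1 of the markers that named DPbla and 1 of the G2/M list, so these levels describe the grouping and do not check it. Tox4 itself was at 45.0 and 50.6 CPM in control and 42.1 and 47.5 CPM in cKO DPbla cells. Counts per gene give no position along Tox4, so whether this level includes the floxed exons was not tested, and it is not read as a check of the deletion.

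Histone RNA was highest in DPbla cells. Control 1, control 2, cKO 1 and cKO 2 had 11307, 7359, 9088 and 6571 CPM over the 67 genes (mean 8581 ± 2099, SD, n = 4). Double-negative cells (DN), the stage before DP, had 1107 to 1580 CPM. Resting DP cells had 1433, 1127, 1338 and 1253 CPM in the same order, and CD4 single-positive cells in G1 had 307 to 521 CPM. In all 4 libraries DPbla cells were highest and CD4 cells in G1 lowest of these groups, and DPbla did not overlap any of them. The log2 ratio of DPbla over resting DP was 2.98, 2.71, 2.76 and 2.39, a 6.55-fold mean difference, and that of DPbla over DN gave 6.16-fold. Resting DP cells were 3.05-fold above CD4 cells in G1. CD8 single-positive cells ranged from 599 to 1877 CPM, with control 1 lowest. Within CD8 cells, those scored as G2/M had 1316 to 4158 CPM and those in G1 had 252 to 405 CPM.

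**Figure D1:**
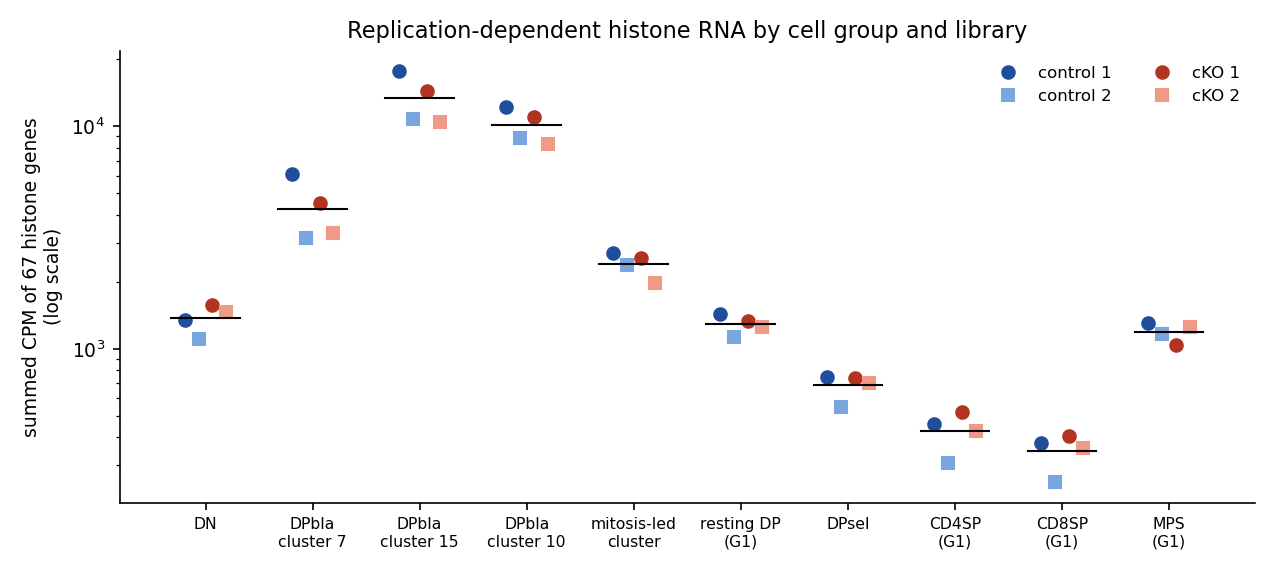
Summed CPM of the 67 histone genes (log scale) in 10 cell groups, with 1 point per library and a line at the mean of the 4 libraries. The 3 DPbla clusters stood above the resting groups in every library, and cluster 15 was highest, between 10472 and 17650 CPM.

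Cells that should not be copying DNA also held histone UMIs. Mononuclear phagocytes (MPS) in G1 held 1046 to 1309 CPM of histone RNA, close to resting DP cells. The class shares were also close, with H2A at 37.7% of histone CPM in MPS and 40.5% in resting DP cells, and H2B at 23.3% and 22.7%. Lck, which phagocytes should lack, stood at 576 to 939 CPM in the same MPS cells and at 1203 to 1324 CPM in resting DP cells. After thinning to 1000 UMIs per cell, 64.6 to 71.6% of MPS cells in G1 and 63.4 to 71.4% of resting DP cells had a histone UMI. The unthinned shares were 75.6 to 89.6% and 90.1 to 96.7%, at median depths of 1608 to 2516 and 2431 to 3352.5 UMIs. The thinned share was higher in resting DP cells than in MPS cells in control 1 (70.3% against 66.7%), cKO 1 (71.4% against 67.2%) and cKO 2 (66.9% against 64.6%), and lower in control 2 (63.4% against 71.6%). With 45 to 130 MPS cells per library and ranges that overlap, no difference is read from these shares. CD4 cells in G1 lay lower, at 24.7 to 43.1% thinned and 78.0 to 91.9% unthinned, with median depths of 4190.5 to 6073 UMIs. DPbla cells lay higher, at 89.5 to 94.1% thinned and 99.2 to 99.9% unthinned, with median depths of 8402.5 to 10570 UMIs. How much free RNA contributes to the resting levels was not tested.

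H2A genes made up most of the histone RNA that poly(A) capture counted in DPbla cells. UMIs from 3′ ends do not scale with transcript length, but genes differ in other ways that bear on their counts. The share of the 3′ end found in other genes ran from 0 to 100%, and the longest run of A from 2 to 15 bases. Levels of different genes are therefore counts of molecules captured and assigned to a gene, and not amounts of all histone mRNA. How far these features shape the class shares was not tested. The H2A genes summed to 7792, 4713, 6073 and 3994 CPM in control 1, control 2, cKO 1 and cKO 2, or 65.1% of the total. The H1 genes summed to 1585, 1356, 1447 and 1467 CPM, or 17.7%. H2B genes had 446 to 779 CPM, H3 genes 282 to 556 CPM and H4 genes 374 to 595 CPM. The classes differed in the ratio of DPbla to resting DP cells. H2A was 10.5-fold lower in resting DP cells, H3 6.67-fold, H1 4.89-fold, H4 4.05-fold and H2B 2.07-fold.

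A few genes led the classes. Hist1h2ap, an H2A gene, had 5376, 3618, 4215 and 2883 CPM in DPbla cells of control 1, control 2, cKO 1 and cKO 2, 43.9 to 49.2% of all histone UMIs there. Every 90-base window of its 3′ end also occurs in another annotated gene, so its count may be shared with near-identical H2A genes such as Hist1h2ao. Hist1h2ae, the H2A gene next in level, had 1549, 624, 1156 and 647 CPM. Both were higher in each replicate 1 library than in either replicate 2 library. Without Hist1h2ap, the other 66 genes still summed to 3688 to 5931 CPM in DPbla cells.

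Hist1h1b, which encodes the linker histone H1.5, was the leading H1 gene with 902, 774, 844 and 876 CPM, a narrower range than that of the H2A genes. Hist1h1e, which encodes H1.4, had 219 to 255 CPM. Its windows are also found in the overlapping model of the H2B gene Hist1h2be, so its value is uncertain. Hist1h1c, which encodes H1.2, had 123 to 157 CPM, while Hist1h1d (H1.3) averaged 127 CPM and Hist1h1a (H1.1) 111 CPM. Hist1h4d led the H4 genes with 163 to 249 CPM, Hist1h3c the H3 genes with 61.8 to 149 CPM, and Hist1h2ab (H2A) had 109 to 179 CPM. Among H2B genes Hist3h2ba had the highest mean, with 82.3 to 159 CPM, but in cKO 1 Hist1h2bj was higher, at 109 CPM in a range of 75.6 to 119 CPM. Windows of Hist1h2ab and Hist1h2bj are shared with other genes for 64.5% and 61.6% of their 3′ ends.

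Cells of the DPbla group were then split by cell cycle phase, using S and G2/M gene lists that hold none of the 67 genes. S made up 34.9%, 32.9%, 41.5% and 37.5% of DPbla cells in control 1, control 2, cKO 1 and cKO 2, and 7.69 to 9.77% of cells lay within 0.05 of the boundary between the 2 scores. Histone RNA was higher in G2/M-scored than in S-scored cells. The 67 genes summed to 9174, 5099, 6314 and 4658 CPM in S and to 12414, 8506, 11073 and 7711 CPM in G2/M. Each library was higher in G2/M, and the log2 ratio of S over G2/M averaged -0.68 ± 0.17 (SD, n = 4), a 1.60-fold difference. The H1 sum was the exception in 1 library. Its log2 ratio was 0.08 in control 1 and between -0.56 and -0.48 in the other 3.

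Of the 58 histone genes that passed the filter on low counts, 43 were called higher in G2/M and 0 higher in S (edgeR quasi-likelihood test with library as a block, Benjamini-Hochberg adjusted over 9722 genes). The backgrounds were 21.4% of all genes tested called higher in G2/M and 22.2% called higher in S. The other 15 were not called, 54 of the 58 had a log2 S over G2/M below 0, and 42 were higher in G2/M in all 4 libraries. The median log2 S over G2/M of the 58 was -0.60. DESeq2 called 32 higher in G2/M. By class the calls were 4 of 5 H1, 14 of 14 H2A, 14 of 16 H2B, 7 of 11 H3 and 4 of 12 H4 genes. With phases assigned on unthinned cells, 1 gene, Hist1h2bc, was called higher in S, whereas it was called higher in G2/M in 3 other settings.

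**Figure D2:**
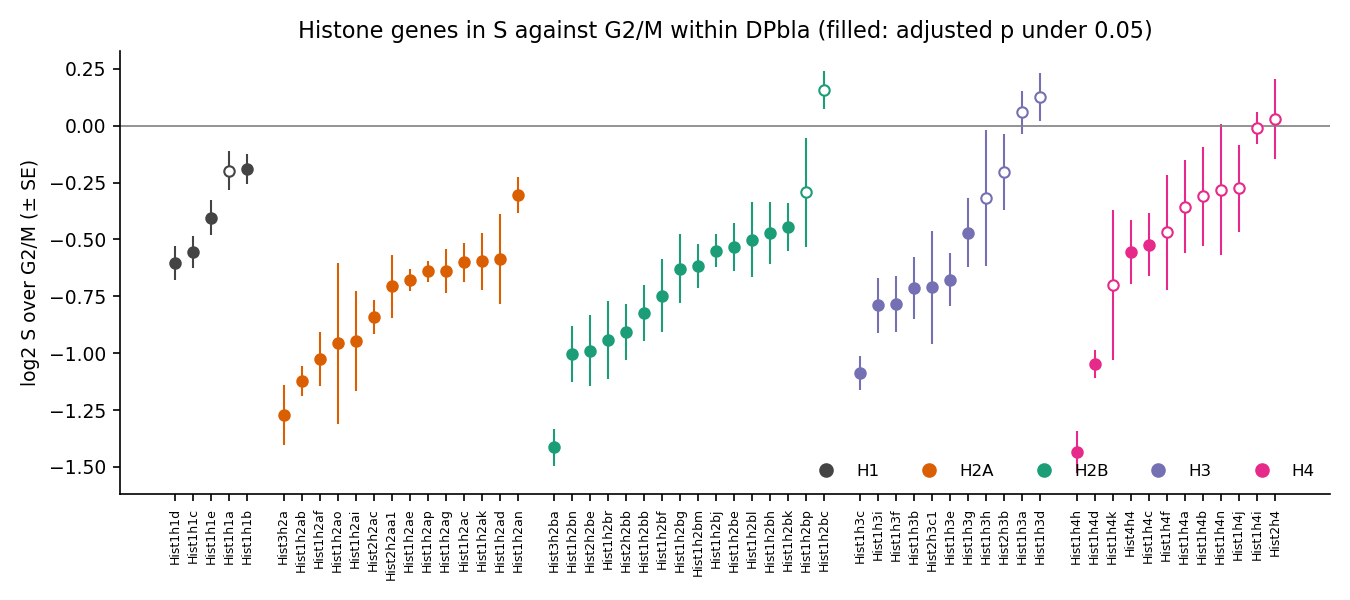
Fitted log2 S over G2/M within DPbla cells (± SE) for the 58 histone genes tested, grouped by histone class, with filled points at an adjusted p under 0.05. All 14 H2A genes lie below 0 and are filled, while the H4 genes spread from -1.43 to about 0.

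The genes furthest toward G2/M came from different classes. Hist1h4h, an H4 gene, had 27.0, 20.1, 32.9 and 22.8 CPM in S and 78.7, 66.8, 81.4 and 70.3 CPM in G2/M, a log2 S over G2/M of -1.43 ± 0.09 (edgeR, adjusted p = 1.53e-12). Its windows are shared with other genes for 56.9% of its 3′ end. Hist3h2ba, an H2B gene, had 65.0, 71.5, 31.7 and 48.6 CPM in S and 184, 203, 118 and 113 CPM in G2/M, a log2 ratio of -1.41 ± 0.08 (edgeR, adjusted p = 1.04e-13). Hist3h2a, the H2A gene beside it on chromosome 11, had 9.72 to 21.1 CPM in S and 32.2 to 57.1 CPM in G2/M, with a log2 ratio of -1.27 ± 0.13 (edgeR, adjusted p = 1.23e-08). None of the 3 genes overlapped between phases. Hist1h2ap had 2041 to 4162 CPM in S and 3384 to 6004 CPM in G2/M, a log2 ratio of -0.64 ± 0.05 (edgeR, adjusted p = 7.22e-12). Its ranges overlapped between libraries, but each library was higher in G2/M.

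At the other end were Hist1h2bc, Hist1h3d and Hist1h3a, none of which was called. Hist1h2bc, an H2B gene, had 56.2, 85.4, 51.7 and 48.9 CPM in S and 66.5, 71.6, 45.8 and 49.1 CPM in G2/M (log2 0.16 ± 0.08, edgeR adjusted p = 0.137). Hist1h3d and Hist1h3a, both H3 genes, had log2 ratios of 0.13 ± 0.11 and 0.06 ± 0.09 (edgeR adjusted p = 0.363 and 0.650). Hist1h4i, an H4 gene, had 98.5 CPM in S and 102 CPM in G2/M on average (log2 -0.01 ± 0.07, edgeR adjusted p = 0.918). The direction of Hist1h2bc depended on how DPbla cells were chosen. It was called higher in G2/M with no filter on UMI totals (log2 S over G2/M -0.26, edgeR adjusted p = 0.00224), with histone genes kept for clustering (-0.36, edgeR adjusted p = 0.00302) and with no doublet removal (-0.27, edgeR adjusted p = 0.00324), and higher in S without control 1 (0.21, edgeR adjusted p = 0.0458). The signs of Hist1h3a and Hist1h4i also changed between settings, with no call in any.

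Hist1h1b differed between libraries. It had 987, 636, 719 and 706 CPM in S and 860, 846, 935 and 978 CPM in G2/M, so that control 1 was higher in S and the other 3 libraries higher in G2/M. The fitted log2 ratio was -0.19 ± 0.07 (edgeR, adjusted p = 0.0235), and it ranged from -0.34 to -0.11 when each library was left out. The call was lost in 7 of 13 settings, without each of the libraries other than control 1 (edgeR, adjusted p = 0.154 to 0.192) and with DESeq2 (0.466) among them. Hist1h1a had a log2 ratio of -0.20 ± 0.09 and was not called (edgeR, adjusted p = 0.0668).

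A finer order was read from the angle between the S and G2/M scores of each cell, in 5 bins of 22.5 degrees that held at least 20 cells in every library. Summed histone CPM averaged 4816 at 0 to 22.5 degrees, 8326 and 11126 in the next 2 bins, 11227 at 67.5 to 90 degrees and 6882 at 90 to 112.5 degrees. The bins at 45 to 90 degrees, where both scores were above 0 and the G2/M score was the larger, were the highest 2 in each library. The bin of the highest S score relative to G2/M was the lowest bin in 3 libraries, and in control 1 the last bin was lower. These angles order cells by score and are not times.

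**Figure D3:**
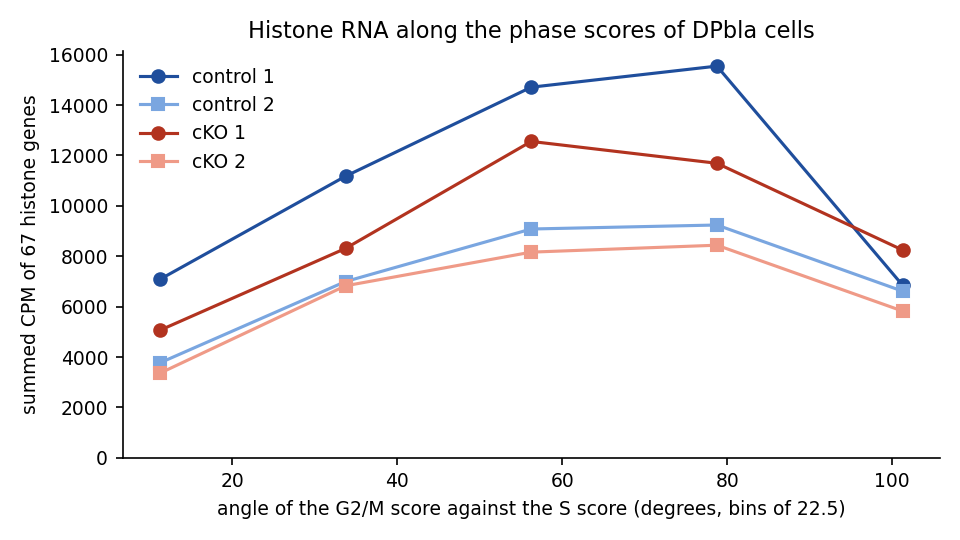
Summed CPM of the 67 histone genes in DPbla cells against the angle of the G2/M score over the S score, in bins of 22.5 degrees, with 1 line per library. The 4 lines rise to bins between 45 and 90 degrees, and control 1 reaches 15544 CPM.

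Genes differed in where they were highest. Of 59 genes compared, 38 were highest at 67.5 to 90 degrees and 10 at 45 to 67.5 degrees, the latter with Hist1h2ap, Hist1h2ae, Hist1h1b, Hist1h1e, Hist1h1a and Hist1h3a. Hist1h1b went from 569 CPM through 1205 CPM at 45 to 67.5 degrees to 481 CPM in the last bin. The last bin was the highest for 9 genes. Of these, Hist3h2ba had 48.0, 59.8, 92.1, 160 and 221 CPM from the first bin to the last. Hist1h4i stayed between 99.5 and 104.5 CPM in all 5 bins. Each is a mean over the 4 libraries, given as a description.

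The clusters, built with the genes of the phase lists left in, gave a similar picture. They are therefore not independent of the phase scores. DPbla cells fell into cluster 7 (874 of 1188 cells in S), cluster 15 (458 of 650 in G2/M) and cluster 10 (1034 of 1038 in G2/M). Summed histone CPM was 6082, 3138, 4537 and 3301 in cluster 7, 17650, 10795, 14461 and 10472 in cluster 15, and 12205, 8852, 10953 and 8345 in cluster 10. Each library had the order 15, 10, 7, and cluster 15 was on average 3.17-fold above cluster 7. Cluster 15 had 192 cells in S by score and held the highest level of 29 of 59 genes, cluster 10 that of 25, and cluster 7 that of none. From cluster 15 to cluster 10 the H1 and H2A sums were 1.65-fold and 1.35-fold lower, whereas the H2B and H4 sums were 1.30-fold and 1.12-fold higher.

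A further cluster led by mitotic genes such as Ccnb2, Cenpa and Cdc20 was not named DPbla, because genes of the phase lists led it and its DPre marker score was higher. It held 2.05%, 1.60%, 1.73% and 1.72% of kept cells in control 1, control 2, cKO 1 and cKO 2. Its summed histone CPM was 2697, 2392, 2572 and 1969, which was 4.17-fold below cluster 10. H2A was 6.90-fold lower there and H2B 1.18-fold lower, so that H2B made up 29.2% of histone CPM against 7.13% in DPbla cells. Hist1h2bc had 389, 422, 356 and 254 CPM in these cells, above its 45.8 to 85.4 CPM in DPbla cells of either phase. Hist1h1c, Hist1h2ac and Hist2h2be were also highest there, with Hist1h1c at 230 to 310 CPM. A second cycling cluster with few UMIs per cell (medians of 737 to 975) was also kept out of DPbla. It held 3.26%, 3.55%, 7.43% and 5.69% of kept cells and 2707 to 4048 CPM of histone RNA. Both exclusions rest on limits set after the data had been seen.

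Resting DP cells were compared gene by gene for 61 genes with at least 10 UMIs in every library over the 2 groups. A gene low in resting cells could pass through its DPbla counts alone, so the values describe the genes kept. Of the 61 genes, 57 were higher in DPbla cells in all 4 libraries, with a median of 5.71-fold over the 61. Hist1h2ap was 13.9-fold and Hist1h1b 11.0-fold higher. Hist3h2a and Hist3h2ba, neighbours in the Hist3 locus, were higher in resting cells in all 4 libraries. Hist3h2ba had 168, 248, 151 and 183 CPM in resting DP cells of control 1, control 2, cKO 1 and cKO 2 and 144, 159, 82.3 and 88.8 CPM in DPbla cells, a 1.58-fold mean difference, with ranges that overlapped between libraries. Hist3h2a had 79.8, 69.4, 66.8 and 55.2 CPM in resting DP cells and 32.4 CPM on average in DPbla cells, a 2.09-fold difference. Hist2h2be, an H2B gene with a long annotated 3′ end, had a ratio of resting DP over DPbla of 0.916, which lay above 1 in the cKO libraries and below 1 in the controls. CD4 cells in G1 had 28.9 to 39.5 CPM of Hist3h2ba and 14.1 to 24.3 CPM of Hist3h2a, below every resting DP library. MPS cells in G1 had 55.7 to 190 CPM of Hist3h2ba and 12.4 to 82.1 CPM of Hist3h2a, and both ranges overlapped those of resting DP cells.

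**Figure D4:**
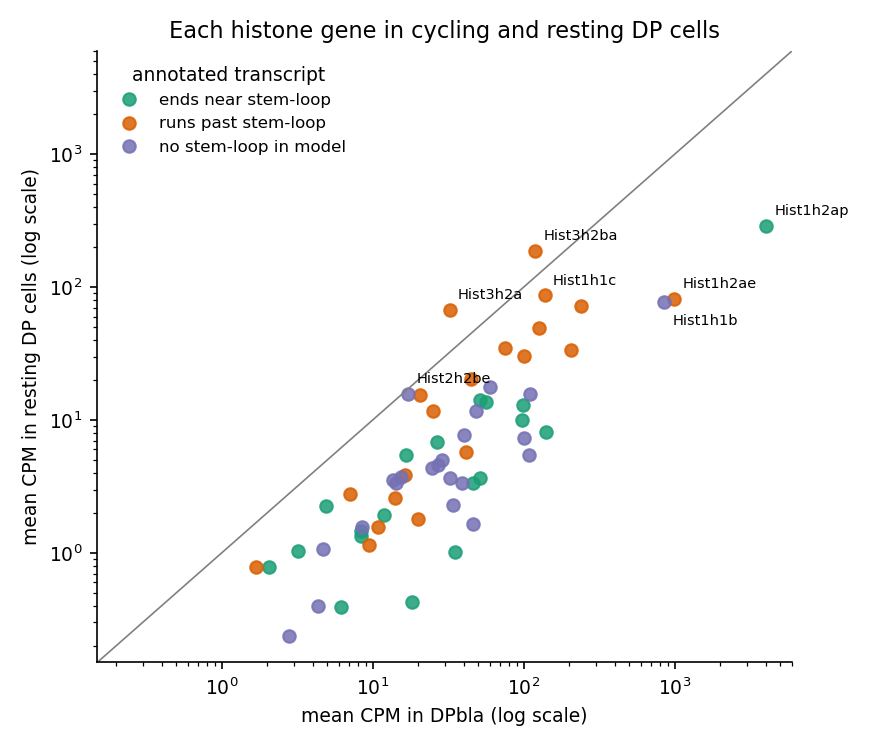
Mean CPM of each of 61 histone genes in resting DP cells against that in DPbla cells (both log scales, 4 libraries), coloured by the annotated 3′ end, with a line of equal levels. Nearly all genes lie under the line, whereas Hist3h2a and Hist3h2ba lie above it and Hist2h2be close to it.

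The 3′ ends printed above were set beside these levels. The 20 genes whose models end near the stem-loop held 54.9% of histone CPM in DPbla cells and 29.4% in resting DP cells. The 20 genes whose models run past the loop held 26.1% and 55.3%, and the 27 without a loop 19.0% and 15.3%. Hist1h2ap, whose count may be shared with near-identical genes, carries the first share, since the other 19 genes of its group held 7.98% and 6.90%. The median ratio of DPbla over resting DP was 6.28-fold, 2.95-fold and 5.79-fold in the 3 groups. Within the last group it was 7.32-fold over the 12 compared genes whose models end within 2 bases of the stop codon and 4.99-fold over the other 10 compared. Spread within a group was large. In the group that runs past the loop, single genes lay between 0.478-fold (Hist3h2a) and 12.2-fold (Hist1h2ae). Which 3′ end was captured in these cells cannot be read from gene counts.

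Control and cKO libraries were compared in sums of UMIs per library and cell group (edgeR quasi-likelihood test, 2 against 2 libraries, Benjamini-Hochberg adjusted over all genes tested). The p-values set the difference between genotypes against the spread between these libraries, moderated over all genes. In DPbla cells, 2 of 62 histone genes were called lower in cKO and 0 higher, against 2.68% of all 10627 genes tested called in either direction. DESeq2 also called 2. The number and direction of histone calls changed with the library left out. Such fits hold 1 library of a genotype, so their counts are not read here. Summed histone CPM in DPbla cells had a mean log2 cKO over control of -0.24 with a pooled SD of 0.39, and libraries of both genotypes overlapped (exact permutation test, two-sided, p = 0.667, where 2 against 2 cannot go below 0.333). Between libraries of the same number it was -0.32 and -0.16. Leaving out each library moved the mean between -0.55 (without control 2) and 0.07 (without control 1). Replicate 1 exceeded replicate 2 by 1.54-fold in control and 1.38-fold in cKO. The replicate 1 libraries are those with the larger share of cells over the mitochondrial limit, and the part of that share in the histone levels was not tested.

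Hist3h2ba was lower in cKO DPbla cells. It had 144 and 159 CPM in control and 82.3 and 88.8 CPM in cKO, with no overlap, and a log2 cKO over control of -0.78 ± 0.11 (edgeR, adjusted p = 0.00186). It was also lower in the DPbla cells in G2/M, at 184 and 203 CPM against 118 and 113 CPM (log2 -0.71, edgeR adjusted p = 0.0111). In DPbla cells in S it had 65.0 and 71.5 CPM against 31.7 and 48.6 CPM (log2 -0.71, edgeR adjusted p = 0.0230). The calls in DPbla and in G2/M stood when any 1 library was left out. That in S was lost without control 2 (log2 -0.60, edgeR adjusted p = 0.230) or cKO 1 (log2 -0.45, edgeR adjusted p = 0.348). With a mitochondrial limit of 5%, its log2 ratio in DPbla was -0.58 and the call was lost (edgeR, adjusted p = 0.0646), as it was with no filter on UMI totals (-0.64, edgeR adjusted p = 0.0662). The S call was lost in both of these settings too (edgeR, adjusted p = 0.392 and 0.430), and the G2/M call with the 5% limit (-0.49, edgeR adjusted p = 0.235). S-scored cells, where Hist3h2ba is low, made up 32.9 to 34.9% of control and 37.5 to 41.5% of cKO DPbla cells.

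Hist1h4i, the H4 gene whose level was flat over the phases, was the other gene called. It had 128 and 110 CPM in control and 90.2 and 73.9 CPM in cKO DPbla cells (log2 -0.49, edgeR adjusted p = 0.0379). In S it had 138 and 106 CPM against 81.5 and 68.6 CPM (log2 -0.64, edgeR adjusted p = 0.0109). The genotypes did not overlap in either. The DPbla call was lost without control 1 (edgeR, adjusted p = 0.211), without cKO 1 (0.0614) and without cKO 2 (0.414). The S call was lost without control 1 (edgeR, adjusted p = 0.369) and without cKO 2 (0.176). Over all settings each of these 2 calls was lost in 7 of 14, among them the 5% mitochondrial limit (edgeR, adjusted p = 0.348 in DPbla and 0.485 in S) and no filter on UMI totals (0.206 and 0.597).

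Calls of histone genes by phase were few. In DPbla cells in S, 3 of 54 genes were called lower (1.55% of all genes called), and DESeq2 called 0 of them. The third, Hist1h3d, had 86.8 and 29.8 CPM in control and 33.9 and 22.0 CPM in cKO, so the genotypes overlapped. Its log2 ratio of -0.95 (edgeR, adjusted p = 0.0189) became -0.09 without control 1 (edgeR, adjusted p = 0.966), and the call was also lost without cKO 2 (-0.66, edgeR adjusted p = 0.150), in all in 7 of 13 settings. In G2/M, 1 of 61 was called lower (0.592% of all genes). In both phases the number and direction of histone calls changed with the library left out. Counts from these fits, which hold 1 library of a genotype, are not read. Leaving out each library moved the log2 cKO over control of the sum from -0.76 to 0.09 in S. In G2/M it moved from -0.43 to 0.12. A test of whether the genotype difference itself differed between S and G2/M called 0 of 61 histone genes (edgeR, smallest adjusted p = 0.215, 10 of 61 with an unadjusted p under 0.05 against 582 of 10111 genes, and 2 of those called).

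**Figure D5:**
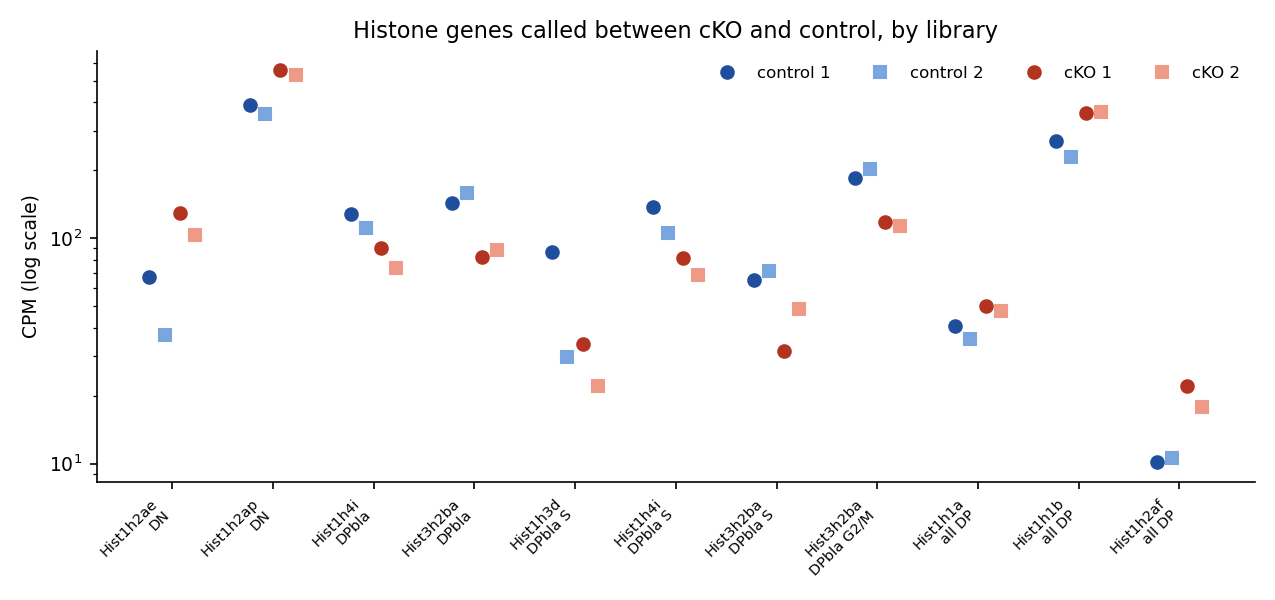
CPM per library (log scale) of each histone gene called between cKO and control, by cell group, with circles for replicate 1 and squares for replicate 2. The 2 cKO libraries lie outside the range of the 2 controls in each column except that of Hist1h3d in DPbla cells in S.

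The remaining stages gave few calls. In DN cells 2 of 28 histone genes were called higher in cKO (0.258% of all genes called). Hist1h2ap had 388 and 356 CPM in control and 555 and 530 CPM in cKO (log2 0.58 ± 0.10, edgeR adjusted p = 0.0295). Hist1h2ae had 67.5 and 37.1 CPM against 129 and 103 CPM (log2 1.24 ± 0.22, edgeR adjusted p = 0.0295). The genotypes did not overlap for either gene. The call of Hist1h2ap was lost without cKO 1 and that of Hist1h2ae without control 2. Leaving out each library, the log2 ratio lay between 0.53 and 0.62 for Hist1h2ap and between 0.81 and 1.64 for Hist1h2ae. Both calls were also lost with no filter on UMI totals (edgeR, adjusted p = 0.998 and 0.822), with histone genes kept for clustering (0.378 and 0.307) and at a clustering resolution of 1.5 (0.0538 and 0.0607), where 0 histone genes were called in DN cells. How many histone genes were called also changed with the library left out, in fits that hold 1 library of a genotype. Mki67 was at 52.2 and 58.9 CPM in control DN cells and at 134 and 113 CPM in cKO DN cells, and DN sums held 71, 111, 159 and 319 cells. The histone sum went the other way in DN cells in G1, at 1273 and 1167 CPM in control and 1080 and 1009 CPM in cKO. It was higher in cKO in DN cells in S (1488 and 658 against 1731 and 1846 CPM) and in G2/M (1500 and 1356 against 2241 and 1745 CPM), again with no overlap. These phases held 12 to 86 cells per library, and the genotype difference by phase was not tested in DN cells.

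In DPre cells 0 of 57 histone genes were called (1.87% of all genes), with 6 at an unadjusted p under 0.05, against 1766 of all 11727 genes. In DPsel cells the count was 0 of 41 (0.393% of all genes) with 4 under 0.05, against 957 of 10686 genes. In CD4 cells it was 0 of 22 (0.277%) with 8 under 0.05, against 730 of 9386 genes. In CD8 cells it was 0 of 32 (0.0232%) with 13 under 0.05, against 589 of 8612 genes. DESeq2 called 0 in each of these 4 groups. Leaving out a library gave some calls in DPre, CD4 and CD8 cells. These were all higher in cKO in CD4 and CD8 cells and went in both directions in DPre cells. In CD8 cells such calls appeared only in fits that kept control 1. These fits hold 1 library of a genotype, so their counts are not read. In CD8 cells the summed histone CPM was 599 and 1289 in control and 1877 and 1434 in cKO, without overlap (exact permutation test, two-sided, p = 0.333, the smallest possible). Between libraries of the same number the log2 cKO over control was 1.65 and 0.15, so that control 1 stood apart from the other 3. The CD8 cells scored as G2/M were 19 of 145 and 26 of 174 in control and 54 of 240 and 43 of 215 in cKO. In CD8 cells in G1 the sums overlapped, at 378 and 252 CPM in control and 405 and 358 CPM in cKO, as they did in S, at 748 and 1560 CPM against 2323 and 1553 CPM. In G2/M they did not, at 1316 and 3776 CPM in control and 4158 and 3845 CPM in cKO, with control 1 apart from the other 3. The part of the G2/M share in the CD8 sums was not tested.

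When all DP cells were summed, 3 of 62 histone genes were called higher in cKO (5.79% of all genes called), and DESeq2 called 4. Hist1h1b had 269 and 229 CPM in control and 361 and 363 CPM in cKO (log2 0.60, edgeR adjusted p = 0.00224). Hist1h2af, an H2A gene, had 10.1 and 10.6 CPM against 22.1 and 17.7 CPM (log2 0.99, edgeR adjusted p = 0.00143). Hist1h1a had 40.9 and 35.6 CPM in control and 47.6 CPM or more in both cKO libraries (log2 0.41, edgeR adjusted p = 0.0387), a call that was lost when any 1 of the 4 libraries was left out. The genotypes did not overlap for these 3 genes. DPbla cells were 6.91% and 7.04% of kept cells in control and 9.67% and 9.86% in cKO, and none of the 3 genes was called in DPbla cells. The part of that share in the sums over all DP cells was not tested. The direction of histone calls in all DP cells depended on the library left out. Calls were mostly higher in cKO without control 1 and mostly lower without control 2. These fits hold 1 library of a genotype, so their counts are not read. Of the 3 genes, only Hist1h2af kept its call in all 13 settings, while that of Hist1h1b was lost with no filter on UMI totals (edgeR, adjusted p = 0.0557). Windows of Hist1h2af are shared with other genes for 51.2% of its 3′ end.

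Other genes of histone supply were read as lists, without the genes that scored the phases, since their order between S and G2/M is set by the scoring. Beside the counts below, 22.2% of all genes tested were called higher in S and 21.4% higher in G2/M. Among replication-independent histone genes, which are transcribed outside S phase as well, 7 of 9 were called higher in G2/M and 0 in S, led by H2afx (log2 S over G2/M -1.69), which is known to give both a stem-loop and a polyadenylated mRNA, and H2afv (-0.74). Of 16 genes for histone mRNA synthesis and 3′ processing, 6 were called higher in S, among them Nelfe (0.62) and Npat (0.62), a coactivator of histone genes, and 1, Cstf1, higher in G2/M (-0.41). Of 13 histone chaperone and acetylation genes, 8 were called higher in S and 0 in G2/M, led by the helicase gene Mcm2 (1.49), the CAF-1 subunit gene Chaf1a (0.98) and the acetyltransferase gene Hat1 (0.91). Of 5 decay genes, Eri1 and Upf1 were called higher in S and Xrn1 higher in G2/M, counts too small to set apart from the shares over all genes. All are edgeR calls from the same fit as above. Cenpa, which scored G2/M, and Slbp (the stem-loop binding protein gene), Casp8ap2, Chaf1b and Nasp, which scored S, were left out of these counts. Slbp had 951, 924, 739 and 665 CPM in S and 438, 501, 449 and 385 CPM in G2/M, an order that its place in the S list fixes in part.

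Between genotypes, the linker histone genes H1f0 and H1fx were called lower in cKO DPbla cells, as 2 of 10 tested of the replication-independent list. Of all genes tested there, 2.68% were called. H1f0, which encodes H1.0, had 119 and 107 CPM in control and 41.1 and 48.2 CPM in cKO (log2 -1.28, edgeR adjusted p = 3.72e-05). H1fx had 157 and 148 CPM against 73.0 and 93.7 CPM (log2 -0.82, edgeR adjusted p = 0.00211). Neither gene overlapped between genotypes, and both were also called in S and in G2/M. H1f0 was also called lower in all DP cells (log2 -0.69, edgeR adjusted p = 0.00209). No gene of the synthesis or decay lists was called between genotypes in any group. Of 15 chaperone and acetylation genes tested, Nasp was called higher in cKO in DN cells (log2 1.03, edgeR adjusted p = 0.0300), against 0.258% of all genes. Nasp, Chaf1a and Hirip3 were called higher in all DP cells, against 5.79% of all genes.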

How the data were processed

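The deposited matrices hold UMI counts per gene and cell, which the authors made with Cell Ranger on mm10, as the submitters' processing notes say. The values were used as raw counts. Cells with at least 200 genes, at most 10% mitochondrial UMIs, a UMI total outside the top and bottom 2.5% of the library and a Scrublet score outside the top 5% were kept. Clusters (Leiden, resolution 1, 3000 variable genes without the 67 histone genes, 30 components, 20 neighbours) were named from marker lists. Phases were scored on cells thinned to 1000 UMIs with the 43 S and 54 G2/M genes matched from the Seurat lists. Counts were summed per library and group and tested with edgeR 4.0.16 (R 4.3.3; TMM, filterByExpr, quasi-likelihood F test, Benjamini-Hochberg, adjusted p under 0.05), with library as a block for S against G2/M. Groups with under 30 cells in a library were not tested. The code was tested on simulated data. Tools were DESeq2 1.42.0, Seurat 5.3.0, scanpy 1.11.5, leidenalg 0.10.2 and Python 3.11.15.

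The members, the gene lists and the tests were chosen with earlier results of these data known. Named were the 10 genes highest in DPbla cells, the 2 highest of each histone class, those called by genotype, the 3 furthest in each direction between S and G2/M, and the 3 highest in resting DP cells relative to DPbla cells. Hist1h2ac, Hist1h2ao, Hist1h2ba, Hist1h2be and Hist1h2bq were named after their values were seen. Shared 3′ ends were found with 90-base windows in the last 300 bases of GENCODE transcripts. Levels are CPM of all UMIs in a group, so they are relative to the other RNA of those cells. The alternatives were DESeq2, its size factors, no filter on low counts, a replicate block, leaving out each library, a mitochondrial limit of 5%, no filter on UMI totals, histone genes kept for clustering, a resolution of 1.5, no doublet removal and phases from unthinned cells. Counting the low-UMI cycling cluster as DPbla was added after seeing the data.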

Additional observations from a re-analysis of the deposited data

Results flagged for a closer look

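In 52 within-library ratios of histone genes, 4 had 1 of the 4 libraries standing far from the rest by Dixon's criterion, which chance gives in about 1 of 20 groups. In each case the library was control 1. The log2 ratio of S over G2/M in DPbla cells was 0.199 for Hist1h1b, against -0.47 to -0.38 in the other 3 libraries, and -0.337 for Hist1h2bj, against -0.72 to -0.71. The summed H1 genes, of which Hist1h1b is the largest part, had 0.0800 against -0.56 to -0.48. The log2 ratio of DPbla over resting DP cells was 3.233 for Hist1h3d, against 2.51 to 2.60.

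Hist1h4i had cKO over control ratios of opposite sign in different stages, with no overlap of the control and cKO libraries in each, although only that in DPbla cells passed the test. Its log2 cKO over control was 0.358 in CD4 cells (edgeR, adjusted p = 0.815), -0.4885 in DPbla cells (edgeR, adjusted p = 0.0379) and -0.1154 in DPre cells (edgeR, adjusted p = 0.710). The difference between stages was not tested.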

How the results depend on the processing

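The S against G2/M difference kept its direction in every setting, with 30 to 50 genes called higher in G2/M (36 to 46 leaving out each library) and 0 to 1 higher in S (1 with unthinned phases and 1 without control 1). Leaving out each library moved the log2 S over G2/M from -0.76 to -0.63, DPbla over resting DP from 2.62 to 2.82 (2.33 with no filter on UMI totals), and cKO over control of the sums from -0.55 to 0.07 in DPbla, -0.76 to 0.09 in S and -0.43 to 0.12 in G2/M. Genotype calls were less stable, and the causes were not tested. Leaving out each library gave 1 to 16 calls in DPbla, 3 to 25 in all DP, 0 to 12 in CD8SP, 1 to 12 in S, 2 to 8 in G2/M, 1 to 7 in DPre, 1 to 4 in DN, 0 to 3 in CD4SP and 0 to 0 in DPsel. With no filter on low counts there were 16 calls in all DP, 9 in DPbla, 7 in CD8SP, 6 in G2/M, 5 in S, 3 in DPre and 1 in DPsel. DESeq2 gave 0 in S. A mitochondrial limit of 5% gave 0 in DPbla, S and G2/M and 1 in DPre. No filter on UMI totals gave 0 in DN, DPbla and S, 1 in all DP and 2 in G2/M. Keeping histone genes for clustering gave 0 in DN and 2 in G2/M, a resolution of 1.5 gave 0 in DN and 1 in DPbla, and no doublet removal gave 4 in CD4SP, 1 in S and 2 in G2/M. With the low-UMI cluster counted as DPbla, 2 genes were called and the log2 sums were -0.23 and 2.65. DN and CD8SP could not be tested at 5%, with 4 and 27 cells in the smallest library.

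The study used pairs of littermates, but the labels do not say that a replicate number marks a pair, a shared litter or a day. Same-numbered libraries deviated together (r = 0.232 over 10627 genes and 0.725 over 62 histone genes, as a hint from the data). With replicate number as a block, 21 genes were called in all DP (19 higher and 2 lower in cKO), 13 in DPbla (1 higher and 12 lower), 11 in G2/M (2 higher and 9 lower), 8 in S, all lower, 8 in DPre (7 higher and 1 lower), 3 in DN and 2 each in CD8SP, CD4SP and DPsel, all higher. The share of all genes called with this block is not given beside these counts, so they are not read as a result about histone genes. Of the values of single named genes, 337 kept their direction and side of the threshold, 51 lost a call, 6 gained one and 11 changed sign, all S over G2/M of genes not called as reported. Hist1h2bc (0.16) became -0.26 with no filter on UMI totals, -0.36 with histone genes kept and -0.27 with no doublet removal, each a call. Without a call, Hist1h4i (-0.01) became 0.096 at 5%, 0.020 with histone genes kept, 0.014 at a resolution of 1.5 and 0.0042 with unthinned phases, and lay between -0.089 and 0.036 leaving out each library. Hist1h3a (0.06) became -0.026 with no filter on UMI totals and lay between -0.036 and 0.13 leaving out each library. With 2 libraries per group, depth limits genes of few UMIs most, and counting intervals cover counting error only.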

Other observations

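Cells left out by the limits also held histone RNA. Cells over the mitochondrial limit had 1526, 1323, 1845 and 1601 CPM of the 67 genes in control 1, control 2, cKO 1 and cKO 2, against 2970, 2204, 3349 and 2660 CPM in cells within the limits. Cells in the highest 2.5% of UMI totals had 5936, 4208, 5305 and 4447 CPM. In each library the order was the same, with the cells of highest UMI totals on top.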
